A study of Homo sapiens with 10 samples.

Results

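The regions described here are the H3K4me1 islands found only in BT474 cells, referred to as BT474-only islands. An island is a stretch of the genome that the peak caller SICER found to be enriched in reads, by the published methods against input DNA as the control. The BT474-only islands were selected on presence alone: an island of BT474 replicate 1 had to overlap an island of BT474 replicate 2 by at least 1 bp and no island of either SKBR3 replicate. The rule gave 31483 of the 96293 islands of BT474 replicate 1, which is 32.7% (95% Wilson interval 32.4 to 33.0%). A further 51609 islands were shared with SKBR3, and 13201 were not found again in BT474 replicate 2. Because the presence of islands chose the BT474-only set, the absence of SKBR3 islands from it is not a result, and widths and reads, which bear on whether an island is called, are given as a description without a test.

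BT474 and SKBR3 are established lines of human breast cancer cells in which ERBB2 is amplified, the gene of the receptor tyrosine kinase HER2. H3K4me1 was mapped by ChIP-seq in 2 samples of each line, labelled as asynchronous cells, with BT474 grown in RPMI-1640 and SKBR3 in McCoys 5A medium, although the text of the study describes these cells as treated with epidermal growth factor (EGF) and the lists could not settle which holds. HER2 was mapped by ChIP-exo, in which the precipitated DNA is trimmed by an exonuclease, in each line after vehicle (water) or EGF at 100 ng/ml for 3 hours without removal of serum, with 1 list of peaks for each of the 4 conditions. Each line is 1 cell line and nothing states that the replicates came from separate cultures, so the spread between replicates may be technical, and the HER2 antibody lots of BT474 were not those of SKBR3.

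H3K4me1 is the monomethylated form of lysine 4 on histone H3. It is laid down mainly by the methyltransferases KMT2C and KMT2D, marks enhancers whether poised or active, and also flanks the start sites of transcribed genes. Because most enhancers work in few cell types, the distribution of the mark differs more between cell types than that of promoter marks. BT474 cells are known to express the oestrogen and progesterone receptors, and SKBR3 cells are known to lack both.

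The H3K4me1 islands held between 15097245 and 18714089 reads per sample and covered between 296.2 and 320.4 Mb. BT474 replicate 1 was the most deeply sequenced by this measure, whereas BT474 replicate 2 was slightly shallower than either SKBR3 sample. The same rule started from replicate 2 gave 31433 of 89478 islands, or 35.1%. The rule turned around gave 17236 SKBR3-only islands among the 72888 islands of SKBR3 replicate 1, or 23.6%. No processed list was given for the input DNA, so a difference in DNA copy number and a difference in the mark cannot be told apart anywhere below.

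The following windows of GRCh37 show the palindromic oestrogen response element, the site recognised by the oestrogen receptor, where it lay in BT474-only islands. They are shown because this element was searched in every island and its count is compared between island classes further on. All are given on the plus strand with the element in capitals. The first is the only match in islands of the oestrogen receptor gene list, and the others lie in 4 of the 5 most heavily covered BT474-only islands that held a match.

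GREB1 intron, chr2:11664702-11664762: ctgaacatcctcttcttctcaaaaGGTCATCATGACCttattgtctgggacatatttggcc
SPATA20 intron, chr17:48631066-48631126: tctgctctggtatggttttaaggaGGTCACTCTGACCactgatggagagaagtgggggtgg
SCARB2 intron, chr4:77102489-77102549: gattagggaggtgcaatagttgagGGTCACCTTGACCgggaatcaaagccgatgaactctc
IMPG1 intron, chr6:76651115-76651175: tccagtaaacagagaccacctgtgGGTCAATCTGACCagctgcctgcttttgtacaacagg
CA10 intron, chr17:49981568-49981628: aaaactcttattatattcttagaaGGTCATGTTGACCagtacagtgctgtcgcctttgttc

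The next sequence is a HER2 peak of the BT474 EGF list that overlaps a BT474-only island, shown as an example of such a peak. The island (chr12:116632601-116635200) ends within the peak, so the last bases shown lie outside the island. This peak had the highest score among the 607 such peaks of at most 300 bp that lay outside annotated exons and off 1 chromosome left out. Capitals mark the letters CGTNTGC, the core motif described by the study for HER2, here on the minus strand of the sequence shown.

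MED13L intron, score 341.5, chr12:116635002-116635293: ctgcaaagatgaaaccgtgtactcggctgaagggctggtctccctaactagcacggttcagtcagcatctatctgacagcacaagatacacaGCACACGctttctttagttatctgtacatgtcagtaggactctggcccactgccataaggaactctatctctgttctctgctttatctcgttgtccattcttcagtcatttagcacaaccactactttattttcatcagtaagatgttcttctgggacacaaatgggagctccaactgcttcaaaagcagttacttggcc

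BT474-only islands were narrower and held fewer reads than the islands shared with SKBR3. The rule itself works towards this, since a wide island can touch an SKBR3 island more easily. The median width was 1.8 kb in replicate 1 and 2.0 kb when replicate 2 was the base list, against 2.8 kb for shared islands in either replicate. The median number of reads was 88 in replicate 1 and 74 in replicate 2, against 150 and 123 in shared islands. The gap was smaller per length, with a median of 48.6 and 40.7 reads per kb in BT474-only islands against 54.7 and 45.5 in shared islands. The distance between the classes exceeded the distance between replicates for width and for reads, but not for reads per kb. Reads are not scaled for depth, so the distance between replicates includes their difference in depth. Within each replicate, reads per kb were higher in shared islands. Broad islands of 10 kb or more made up 0.756% of the BT474-only islands (238 islands) and 6.33% of the shared islands (3266). The same order held for the rule turned around. In SKBR3 replicate 1, SKBR3-only islands had a median of 2.6 kb and 95 reads, against 3.6 kb and 146 reads in islands shared with BT474. Islands of 10 kb or more made up 1.53 and 10.2% of these classes. Together the BT474-only islands covered 74.7 Mb and held 24.2% of the bases but 20.8% of the reads in islands of replicate 1.

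**Figure D1:**
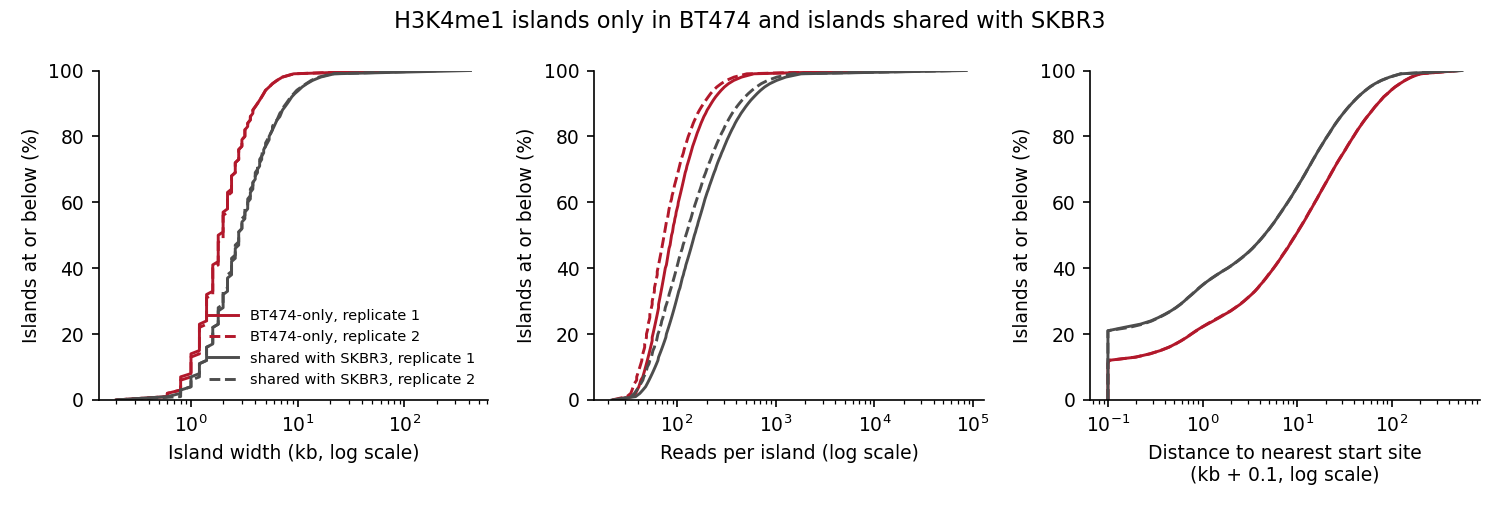
Cumulative percentage of islands (y axis) by width in kb, by reads and by distance to the nearest start site in kb plus 0.1, all on log scales, for BT474-only islands (red) and shared islands (grey), with replicate 1 as solid and replicate 2 as dashed lines. BT474-only islands lie to the left of shared islands for width (medians 1.8 and 2.8 kb in replicate 1) and to the right for distance (medians 9.51 and 4.38 kb).

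Nearly all of these islands had a single counterpart in the second replicate. Exactly 1 island of replicate 2 was overlapped by 30817 of them, and the median share of an island covered in replicate 2 was 91.7%. Of the 31461 islands of replicate 2 that overlapped a BT474-only island, 852 also overlapped an SKBR3 island. Reads of replicate 2 were summed over whole overlapping islands, which can reach past the island of replicate 1. The number of reads in replicate 1 and in the overlapping islands of replicate 2 had a Spearman correlation of 0.790 across the 31483 islands, which share a genome and are not independent. Fewer than 50 reads in replicate 1 supported 3662 islands (11.6%), and 500 or more supported 501 (1.59%). Of these 501 islands, 97 (19.4%) lay on chromosome 17, which held 937 of all 31483 BT474-only islands.

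The rule has an edge at an overlap of zero bases with SKBR3. Just inside it, 134 BT474-only islands lay within 200 bp of an SKBR3 island, with a median width of 2.0 kb and 81 reads. Just outside it, 95 shared islands overlapped SKBR3 islands by only 200 bp, the smallest overlap seen, with a median of 2.0 kb and 72 reads. The islands at either side of the edge were thus alike. Most BT474-only islands were far from it, with a median gap of 21 kb to the nearest SKBR3 island. The gap was 5 kb or less for 23.1% of them, over 100 kb for 22.9% and over 1 Mb for 2.38%.

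The share of BT474 islands that were BT474-only varied strongly between chromosomes. It was highest on chromosome 18, with 54.7% (95% Wilson interval 52.8 to 56.6%), followed by X with 49.2%, 8 with 47.3%, 13 with 43.7% and 4 with 40.2%. It was lowest on chromosome 20, with 16.1% (14.7 to 17.8%), followed by chromosome 1 and by chromosome 9 with 23.7%. The median over 23 chromosomes was 33.1%, and the value from replicate 2 differed by at most 4.66 percentage points on any chromosome. Chromosomes with a high share tended to be those on which SKBR3 islands covered little sequence. On chromosome 18, SKBR3 islands covered 0.522 of the bases that BT474 islands did, against 1.25 on chromosome 20. Chromosome 17 departed from this, with a ratio of 0.829, lower than on chromosomes 4, 8 and 13 (0.839, 0.841 and 0.882), but a share of 29.5%. Over the 23 chromosomes, the share and this ratio had a Spearman correlation of -0.70, given as a description because both use the same SKBR3 lists.

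**Figure D2:**
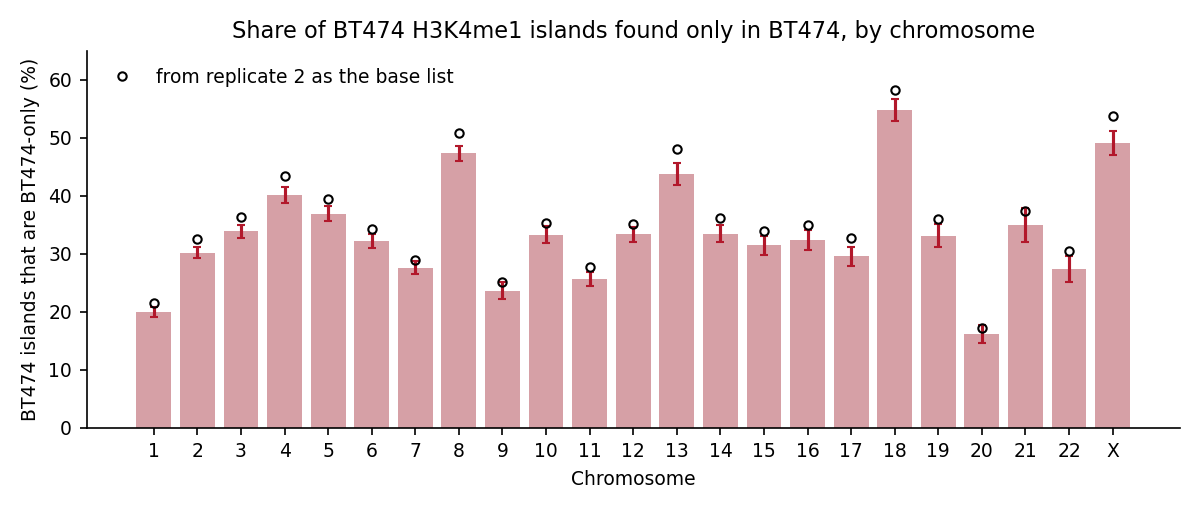
Percentage of the H3K4me1 islands of BT474 replicate 1 that were BT474-only (bars, y axis) by chromosome (x axis), with 95% Wilson intervals that cover counting error only and the value from replicate 2 as open circles. Chromosome 18 stands highest at 54.7% and chromosome 20 lowest at 16.1%, and the circles follow the bars.

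The pattern was also described on a finer scale. Of the 2800 bins of 1 Mb that held a BT474 island, 200 held no SKBR3 island in either replicate, and these 200 bins contained 2228 BT474-only islands (7.08%). In such a bin the rule makes nearly every replicated BT474 island BT474-only, so this count says only where SKBR3 islands were missing. The richest bin was on chromosome 8 from 141 to 142 Mb, with 68 BT474-only islands among 94, although SKBR3 had 21 and 22 islands there. The bins on chromosome 8 from 93 to 96 Mb held 49, 60 and 58 BT474-only islands, and SKBR3 had at most 3 islands in any of them. Bins were also ranked by the read density of shared islands in BT474 replicate 1 over that of all islands, of any class, in SKBR3 replicate 1. Only bins with at least 20 kb of shared islands and at least 5 BT474 islands were ranked. Part of the 2800 bins, those with little or no shared island, was therefore left out. The ranking was divided into 5 groups of about 400 bins. From the lowest to the highest group, the share of BT474-only islands was 13.8, 20.2, 24.7, 33.8 and 45.4%. Bins with a higher ratio thus held a larger share of BT474-only islands. This is a description, since the ratio uses the lists of the rule and does not compare shared islands alone. What part DNA copy number had in this was not tested.

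BT474-only islands lay farther from start sites than shared islands. A start site of any annotated transcript was within 10 kb of 51.0% of them (95% Wilson interval 50.4 to 51.5%), against 64.8% of shared islands. When replicate 2 was the base list, the value was 51.1%. The island covered a start site in 3778 of the BT474-only islands (95% Wilson interval 11.6 to 12.4%) and in 21.4% of shared islands. At the other end, 5.79% of BT474-only islands and 1.78% of shared islands were more than 100 kb from any start site, and SKBR3-only islands had 2.46%. The median distance was 9.51 kb for BT474-only and 4.38 kb for shared islands. In most of these measures SKBR3-only islands were closer to BT474-only than to shared islands, with 53.1% within 10 kb of a start site, 12.6% covering one and a median distance of 8.78 kb. Since wide islands reach start sites more often, the comparison was repeated within width classes. Among islands wider than 1 kb and up to 2 kb, 47.9% of 13430 BT474-only islands and 60.7% of 13349 shared islands were within 10 kb of a start site, and the share was lower for BT474-only islands in all 5 width classes. The midpoint lay in an intron for 61.8% of BT474-only islands and between genes for 31.0%, against 66.2 and 25.1% for shared and 58.7 and 35.0% for SKBR3-only islands.

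The sequence of the BT474-only islands was poorer in GC than that of shared islands. GC made up 40.9% of their bases, which is the share in the whole called genome (40.9%), against 43.6% in shared and 43.1% in SKBR3-only islands. Values from replicate 2 were 40.7 and 43.4% for BT474-only and shared islands. CpG dinucleotides numbered 10.0 per kb in BT474-only, 11.6 per kb in shared and 10.3 per kb in SKBR3-only islands, so a low CpG count was not particular to BT474-only islands.

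Motifs of transcription factors with known roles in breast cells were counted on both strands. The letters of those described first were AGATAA for GATA factors, TGTTTAC for FOXA factors, TGANTCA for AP-1, GGAATG for TEAD factors and, for the oestrogen receptor, GGTCA and TGACC with any 3 bases between them. GATA3 and FOXA1 are pioneer or lineage factors of luminal cells that act with the oestrogen receptor, and AP-1 and TEAD act downstream of growth factor and Hippo signalling. A match is a match of letters and not a bound site. Intervals are exact Poisson intervals at 95% and cover counting error only.

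GATA letters were found 984 times per Mb in BT474-only islands, against 765 in shared islands, 737 in SKBR3-only islands and 839 in the whole genome. FOXA letters were found 245 times per Mb in BT474-only islands, against 198, 174 and 164. Both motifs are rich in A and T, as are the BT474-only islands, so the islands were divided into 4 classes of GC content, a division chosen after these counts had been seen. Within all 4 classes, GATA and FOXA letters were more frequent in BT474-only than in shared islands and least frequent in SKBR3-only islands. In the class from 38 to 42% GC, there were 1013 GATA matches per Mb (999 to 1027) in 7748 BT474-only islands and 915 (907 to 923) in 13301 shared islands. FOXA matches in the same class numbered 251 per Mb (244 to 258) and 229 (225 to 233). The differences were smaller than without the division. The intervals of BT474-only and shared islands were apart in every class except for FOXA letters from 46% GC upwards.

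TEAD letters went the other way. They were found 584 times per Mb in BT474-only, 628 in shared and 705 in SKBR3-only islands, against 597 in the genome. The order of these classes of island held in all 4 GC classes. The intervals of BT474-only and shared islands overlapped in both classes between 38 and 46% GC, and were apart below 38% and from 46% upwards. AP-1 letters were about equally frequent in BT474-only (371 per Mb) and shared islands (368), and more frequent in SKBR3-only islands (412). Below 42% GC, AP-1 matches were slightly more frequent in BT474-only than in shared islands, with overlapping intervals in both classes. Above it they were less frequent, with intervals apart.

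The other factor motifs counted were GCCNNNGGC for TFAP2 factors, TGTGGTT for RUNX factors, ACANNNTGT for a paired steroid receptor site, and AACC followed directly by GGTT for GRHL factors. TFAP2 factors and GRHL2 are also known in luminal cells. TFAP2 letters, rich in G and C, were rarer in BT474-only islands, with 210 per Mb against 270 in shared and 248 in SKBR3-only islands. Within GC classes this order did not hold, since BT474-only islands were below shared islands in 2 of the 4 classes and above them in the other 2. RUNX letters numbered 203, 196 and 196 per Mb and GRHL letters 2.48, 2.33 and 2.29, with overlapping intervals for GRHL. The steroid receptor pair numbered 356, 325 and 322 per Mb. Within all 4 GC classes, the intervals of RUNX letters in BT474-only and shared islands overlapped. For the steroid receptor pair they were apart only below 38% GC, with 408 (401 to 416) against 389 (383 to 395). From 46% GC upwards the pair numbered 256 in BT474-only and 261 in shared islands.

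The full oestrogen response element was rare. It was found 114 times in 112 BT474-only islands, or 0.356% of them, which is 1.53 per Mb (1.26 to 1.83). Shared islands had 1.14 per Mb (1.01 to 1.30), SKBR3-only islands 0.762 (0.549 to 1.03) and the genome 0.767. The intervals of BT474-only and shared islands overlapped, and those of BT474-only and SKBR3-only islands did not. By GC class, BT474-only islands had 2.01 per Mb against 0.756 in shared islands from 38 to 42% GC, and the intervals of these classes of island overlapped in the other 3 GC classes.

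**Figure D3:**
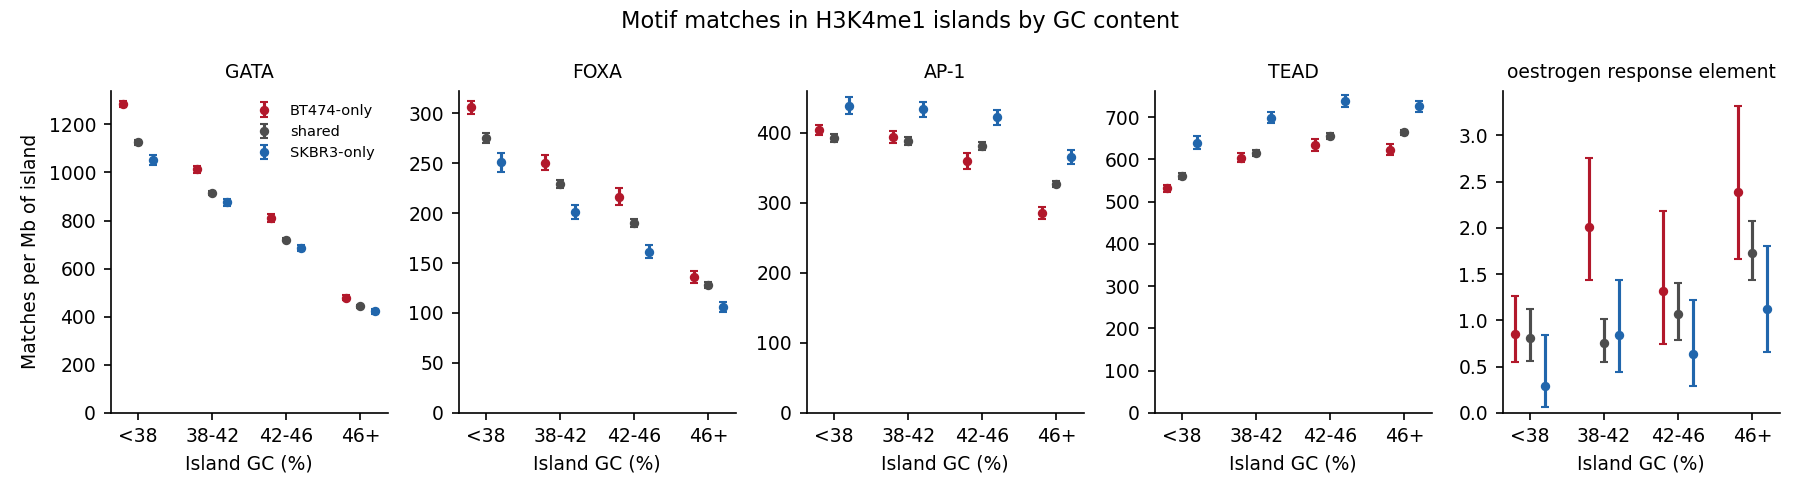
Motif matches per Mb of island (y axes) in 4 classes of island GC content in percent (x axes) for BT474-only (red), shared (grey) and SKBR3-only islands (blue), with 95% Poisson intervals that cover counting error only. GATA and FOXA matches are highest in BT474-only islands in every GC class (1013 and 251 per Mb from 38 to 42% GC), TEAD matches are lowest there, and the intervals of the oestrogen response element in BT474-only and shared islands overlap except from 38 to 42% GC.

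A BT474-only island lay in the body or within 10 kb of 9669 of 20136 protein-coding genes (48.0%), so the presence of one near a gene is common. The start site itself lay in a BT474-only island for 813 genes (4.04%). The counts for the gene lists below are to be read against these percentages, and longer genes have more room for islands.

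Of the 20 genes of the oestrogen and progesterone receptors and their targets, 8 had a BT474-only island. The progesterone receptor gene PGR (chr11:100900355-101000544) had the most bases, with 78.0 kb in 4 islands. The widest measured 41.0 kb and held 3499 reads in replicate 1 and 3058 in the overlapping islands of replicate 2. The others held 2044 and 1779, 766 and 757, and 633 and 603 reads. Islands of any class covered 88.6 and 86.6% of the PGR gene in the BT474 replicates, and 2.40 and 3.54% in the SKBR3 replicates. The start site of PGR lay in a shared island.

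**Figure D4:**
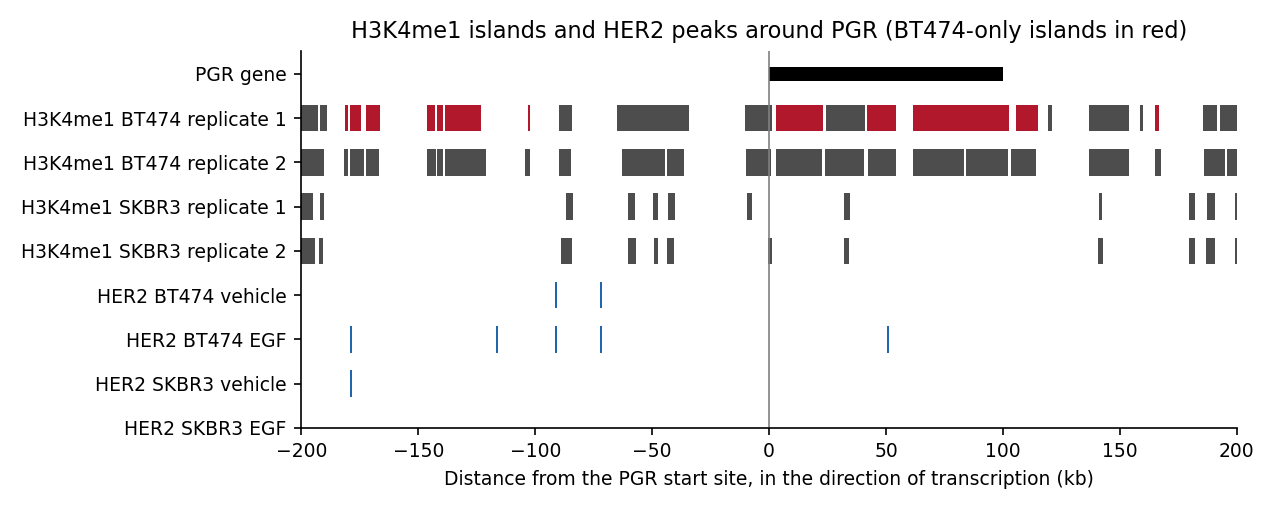
H3K4me1 islands of the 4 samples and HER2 peaks of the 4 lists (rows) within 200 kb of the PGR start site, by distance in kb in the direction of transcription (x axis), with BT474-only islands in red, other islands in grey and HER2 peaks in blue. BT474 islands cover 88.6 and 86.6% of the gene and SKBR3 islands 2.40 and 3.54%, and 1 HER2 peak of the BT474 EGF list lies in a BT474-only island of the gene.

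Other genes of this list had smaller islands. GREB1, an oestrogen-induced coactivator of the receptor, had 9 BT474-only islands with 32.9 kb, and one of them contained its start site. Its body was covered to 54.2 and 58.0% in BT474 and to 15.7 and 15.6% in SKBR3. BCL2, which blocks apoptosis, had 37.4 kb in 9 islands, with 23 and 22.4% of the body covered in BT474 against 2.85 and 3.15% in SKBR3. ESR1, which encodes oestrogen receptor alpha, had 29.4 kb in 13 islands, but SKBR3 islands also covered 19.7 and 18.8% of it, against 26.3 and 27.3% in BT474. Smaller amounts lay at NRIP1, SIAH2, CXCL12 and ABCC5. The classical targets TFF1 and TFF3 had none, and their start sites lay in shared islands. Among genes without a BT474-only island, XBP1, PDZK1, CA12, IGFBP4 and RARA were covered more in both SKBR3 samples than in BT474. XBP1, for instance, was covered to 30.7 and 34.1% in BT474 and to 47.3 and 60.5% in SKBR3. TFF3, MYB, STC2, SERPINA1 and FKBP5 were covered more in BT474.

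Among 15 luminal transcription factors, 7 (46.7%) had a BT474-only island. GATA3 (chr10:8087341-8117161) had 17.6 kb in 5 islands, and the start site lay in one. Islands covered 55.9 and 53.2% of the gene in BT474 and none of it in either SKBR3 sample. TBX3, a T-box repressor of the mammary epithelium, had 20.4 kb in 3 islands, with 74.3 and 77.2% of its body covered in BT474 against 0 and 12.9% in SKBR3. RUNX1 had 14.6 kb in 8 islands, but its long gene was covered to 11.8 and 11.6% in BT474 and to 16.4 and 16.1% in SKBR3, so that BT474-only islands there stood beside more extensive SKBR3 islands. ELF5, GRHL2 and KLF5 had between 3.6 and 9.0 kb. Among factors without a BT474-only island, TFAP2B was covered to 10.4 and 9.69% in BT474 but to 52.6 and 79.4% in SKBR3. TFAP2A was covered to 52.1 and 51.4% in BT474 and to 71.0 and 71.8% in SKBR3. TFAP2C and ELF3 were covered more in BT474, and the rest had no such order in both replicates.

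The ERBB receptors and their ligands had BT474-only islands at 8 of 15 genes (53.3%). ERBB4, a receptor for neuregulins and a dimerisation partner of HER2, had 117.6 kb in 40 islands, spread over a gene of 1163 kb, with 13.8 and 13.9% of the body covered in BT474 and 2.01 and 2.40% in SKBR3. NRG3, a ligand of ERBB4, had 78.6 kb in 35 islands, with 7.30 and 8.15% of the body covered in BT474 and none in SKBR3. The EGF receptor ligand TGFA had 13.6 kb in 9 islands. EGFR itself had 1 island of 1.4 kb, and its body was covered to 21.2 and 19.4% in BT474 but to 65.3 and 65.1% in SKBR3. ERBB2 had none, and its start site lay in a shared island.

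Feedback inhibitors of growth factor signalling had BT474-only islands at 7 of 15 genes (46.7%), each of them with 4.0 kb or less. Keratins had an island at 1 of 14 genes, KRT6B (7.14%). In the HOXB and HOXC clusters, which encode positional homeobox factors, 7 of 19 genes (36.8%) had a BT474-only island. HOXB13 was the only HOXB gene among them, and the start sites of HOXB1 to HOXB9 lay in shared islands. These genes were covered to 100% in both BT474 samples and to 0% in both SKBR3 samples, so they fell outside the rule only because the wide BT474 island over them also reaches SKBR3 islands outside these genes. In the HOXC cluster, HOXC6 had 20.2 kb in 6 islands, with 64.7 and 61.7% of its body covered in BT474 against 1.48 and 4.96% in SKBR3, and the start site of HOXC5 lay in a BT474-only island. The clustered genes lie within 10 kb of each other and share islands.

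The last list held basal, mesenchymal and other tissue genes, listed as ones that should be low in both lines. Of the 13 found in the annotation, 9 (69.2%) had a BT474-only island, the highest share of any list. They included the mesenchymal factor gene ZEB1 with 14.8 kb in 6 islands, the N-cadherin gene CDH2 with 10.2 kb in 5, and TP63 with 6.8 kb in 4. The start sites of VIM, which encodes vimentin, and of SNAI2 lay in BT474-only islands of small extent, since all islands at VIM together had 3.6 kb and those at SNAI2 3.2 kb. Whether this list differs from the others was not tested, and a BT474-only island near a gene did not mark out the luminal lists.

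The BT474-only islands with the most reads were clustered on chromosome 17. Of the 10 with the most reads, 8 lay there, on a chromosome that held 937 of all 31483 BT474-only islands. The first, of 76.6 kb at chr17:46777801-46854400, held 10800 reads in replicate 1 and 8182 in replicate 2 and contained the start sites of HOXB13, PRAC1 and PRAC2. The second covered part of RNF43, a ubiquitin ligase that restrains Wnt signalling, with 9378 and 7811 reads in 56.4 kb. A pair of islands in ANKFN1 held 6887 and 5544 reads and 5986 and 5216 reads. An island of 70.4 kb with 6404 and 4307 reads contained the start sites of EME1, LRRC59, MRPL27 and XYLT2, and one of 36.6 kb with 4555 and 3239 reads those of LASP1, RPL23 and C17orf98. An island in ACACA, which encodes the rate-limiting enzyme of fatty acid synthesis, held 3580 and 2907 reads. The island at TBC1D3, with 7183 and 6199 reads, is uncertain, because TBC1D3 belongs to a family of near-identical copies between which reads of this kind cannot be assigned. All 10 BT474-only islands with the most reads among those that held a protein-coding start site were on chromosome 17 as well, and the others contained the start sites of ARHGAP23, RNFT1, TADA2A, CWC25, DHX40 and TAC4. The amplified ERBB2 gene lies on the same chromosome.

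When pooled, BT474-only islands of chromosome 17 held 74.1 reads per kb and shared islands 98.8, against 52.2 and 65.5 over all chromosomes. Shared islands of chromosome 20 were nearly as dense, with 96.7, whereas BT474-only islands there held 53.4. The median BT474-only island of chromosome 17 held 51.8 reads per kb, close to the median of 48.6 over all chromosomes, and leaving out chromosome 17 gave 48.6.

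Away from chromosome 17, a choice made after the values had been seen, the most heavily covered BT474-only island was at chr15:24310601-24330600. It lay outside protein-coding genes, with NDN as the nearest, held 4046 and 3341 reads in 20 kb, and was 494.6 kb from any SKBR3 island. It was followed by the islands of PGR and by one of 28.6 kb in MPPED2 with 2244 and 1975 reads. Islands covered 62.1 and 62.5% of MPPED2 in BT474 and none in SKBR3. In CDH1 (chr16:68771195-68869440), which encodes E-cadherin, an adhesion protein that SKBR3 cells are known to lack, the widest BT474-only island measured 26.4 kb and held 1875 and 1739 reads. Islands covered 57.0 and 58.6% of CDH1 in BT474 and none in SKBR3, and the nearest SKBR3 island was 186.8 kb away. TOX3, a luminal chromatin factor linked to breast cancer risk, had an island of 40 kb with 1795 and 1362 reads, and 86.6 and 79.0% of the gene was covered in BT474 against 2.15 and 3.77% in SKBR3. NRCAM, a neuronal cell adhesion gene, held one with 1512 and 1269 reads.

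By bases in the gene and its surroundings, long genes came first. NPAS3, a neuronal transcription factor, had 210.4 kb in 61 BT474-only islands, followed by TRAPPC9 with 183.4 kb in 52, CNTNAP2 with 169.8 kb in 77, LRP1B with 136.4 kb in 49 and INPP4B with 133.6 kb in 36. NDUFAF6 and MPPED2 stood out among these for their density, since BT474-only islands filled 54.0 and 57.5% of these genes with 10 kb on either side, compared with 7.30% for CNTNAP2. INPP4B, a phosphoinositide phosphatase of hormone-responsive breast cells, was covered to 38.3 and 39.5% in BT474 and to 10.1 and 9.29% in SKBR3. NAALADL2, ERBB4 and SMYD3 completed the 10 genes with the most bases. As the nearest protein-coding gene, 9252 genes were assigned at least 1 BT474-only island and 645 genes 10 or more. PIK3C3 on chromosome 18 was nearest to the most, with 82, followed by NPAS3 with 65 and CSMD3 and STIM2 with 60 each.

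HER2 peaks were found in few BT474-only islands. Of the 31483 islands, 30544 (97.0%) held no peak of any of the 4 lists and 8 held a peak of all 4. A peak of the BT474 EGF list lay in 876 of them, or 2.78% (95% Wilson interval 2.61 to 2.97%). The share was 3.60% over all islands of BT474 replicate 1 and 4.48% (4.30 to 4.66%) for shared islands. Shared islands are wider, and per length BT474-only islands were not lower. BT474-only islands held 12.2 peaks of this list per Mb (exact Poisson interval at 95%, 11.4 to 13.0) and shared islands 11.4 (10.9 to 11.9), a ratio of 1.07 from replicate 1 and of 1.04 from replicate 2. By width class, the share of islands with a peak was 1.47% for BT474-only and 1.39% for shared islands of at most 1 kb, 1.996 and 2.10% up to 2 kb, and 3.45 and 3.31% up to 4 kb, with overlapping intervals. In wider islands it was lower for BT474-only islands. Between 4 and 8 kb it was 5.00% (4.25 to 5.88%) against 6.42% (5.98 to 6.89%), and above 8 kb 10.5% (7.98 to 13.6%) against 13.1% (12.2 to 14.0%), so the intervals were apart in the 4 to 8 kb class and overlapped above it. SKBR3-only islands, which carry no BT474 island, also held 12.2 BT474 EGF peaks per Mb.

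The other lists gave lower densities. Peaks of the BT474 vehicle list numbered 3.71 per Mb in BT474-only, 3.73 in shared and 3.81 in SKBR3-only islands, which did not differ beyond their intervals. For the SKBR3 EGF list, BT474-only islands held 0.816 per Mb (0.625 to 1.05), shared islands 1.12 (0.984 to 1.27) and SKBR3-only islands 1.52 (1.22 to 1.89). For the SKBR3 vehicle list, the values were 0.964, 1.03 and 1.69. The lower density of SKBR3 peaks in BT474-only than in SKBR3-only islands exceeded counting error for both lists.

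These differences were also compared with the region, a step added after they had been seen. In the 1 Mb bins that held the islands, weighted by island bases, the SKBR3 EGF list had 0.798 peaks per Mb around BT474-only islands, 1.07 around shared and 1.19 around SKBR3-only islands. Relative to these surroundings, the density was 1.02 (0.782 to 1.31) in BT474-only, 1.04 (0.916 to 1.18) in shared and 1.28 (1.02 to 1.58) in SKBR3-only islands. The intervals overlapped, so relative to the surrounding 1 Mb the classes could not be told apart at these numbers of peaks, of which BT474-only islands held 61. For the BT474 EGF list, the values relative to the bins were 1.08 (1.01 to 1.15) in BT474-only, 0.995 (0.956 to 1.04) in shared and 1.17 (1.08 to 1.26) in SKBR3-only islands. The HER2 lists had no replicates, their depth is unknown, and the lots of antibody differed between the lines.

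**Figure D5:**
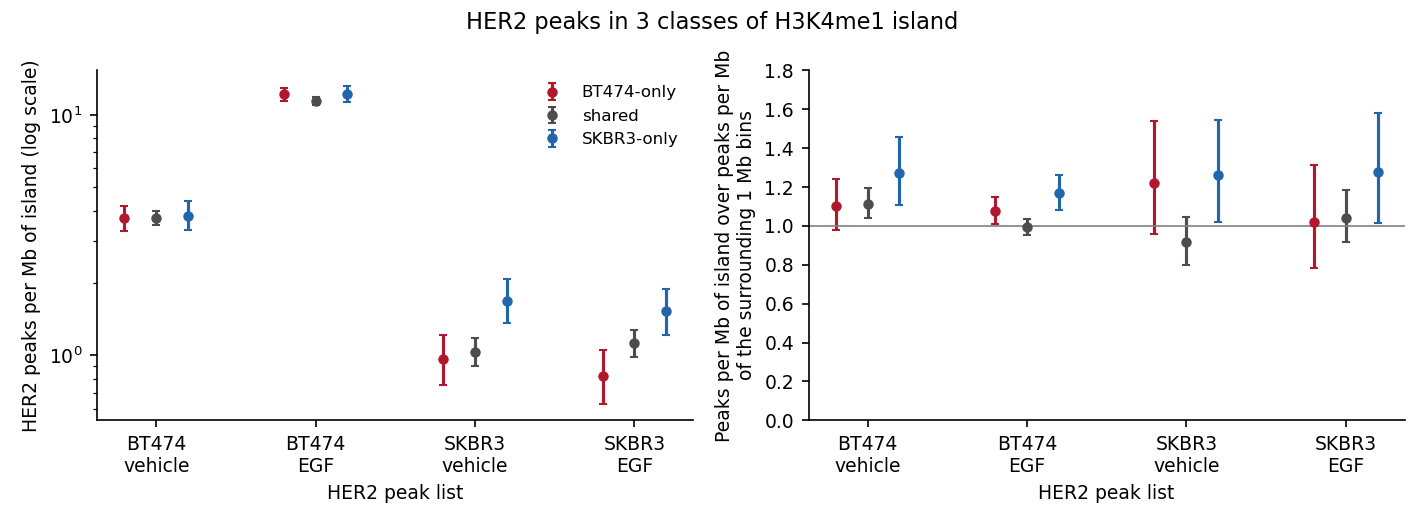
HER2 peaks per Mb of island on a log scale (left) and the same divided by the peaks per Mb of the surrounding 1 Mb bins (right) for the 4 HER2 lists (x axis) in BT474-only (red), shared (grey) and SKBR3-only islands (blue), with 95% Poisson intervals that cover counting error only. BT474 lists have like densities in all 3 classes, 12.2, 11.4 and 12.2 per Mb for BT474 EGF, and SKBR3 lists have their lowest values in BT474-only islands on the left (0.816 per Mb for SKBR3 EGF), whereas on the right these islands are at or above 1 (1.02 for SKBR3 EGF and 1.22 for SKBR3 vehicle, with wide intervals).

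The 909 BT474 EGF peaks in BT474-only islands were close to those in shared islands in score, overlap with other lists and core letters. Their median score, on a scale the authors do not state, was 61, against 60.5 in shared islands and 55.0 outside islands. A peak of the BT474 vehicle list overlapped 27.9% of them, compared with 29.8% in shared islands and 26.2% outside islands. A peak of the SKBR3 EGF list overlapped 6.82% of them, compared with 8.37 and 7.11%. The letters CGTNTGC were in 14.7% (12.6 to 17.2%) of the peaks in BT474-only islands, 14.2% (12.8 to 15.6%) in shared islands and 11.4% (11.0 to 11.8%) of the others, whose interval did not meet that of the BT474-only islands. The letters GCATACGA, which also occur in the Illumina P7 adapter, were in 5.17% (3.91 to 6.81%), 3.27% (2.63 to 4.05%) and 3.75% (3.52 to 3.98%), although the genome holds only 2.56 matches per Mb. GCATACGA contains the core on the other strand, so every peak with these letters is also counted as a peak with the core. In BT474-only islands, 47 of the 134 peaks with the core held them, and in shared islands 80 of 347. The part of the adapter in these peaks was not tested.

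The highest-scored BT474 EGF peaks in BT474-only islands lay in islands of few to moderate reads. The first, with a score of 863.5, lay in an island of 4.0 kb at NDUFA10, a subunit gene of respiratory complex I, which held 255 reads in replicate 1 and 245 in replicate 2. It had no counterpart in the BT474 vehicle list. The second, with 735.0, lay in an island of 92 and 73 reads whose nearest gene was TNS3, and the third, with 674.5, in an island of 102 and 106 reads in TRIP11. The remaining 7 scored between 468.5 and 599 and lay in or nearest to NKAIN3, MIX23, LRCOL1, KPNA1, CEP126, BRPF3 and USP9X. Each of these islands after the first also held a peak of the BT474 vehicle list. The islands with the most reads were not among these 10, and none of the 10 islands with the most reads held a BT474 EGF peak. All of those were wider than 8 kb, and of the 459 BT474-only islands above 8 kb only 10.5% held such a peak. The absence of a peak from 10 islands is therefore not a result.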

How the data were processed

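H3K4me1 ChIP-seq islands of BT474 and SKBR3 (2 samples each) and HER2 ChIP-exo peaks (4 lists) were analysed. The 2 input samples carried no processed list. The published methods describe alignment by bowtie2 to hg19, filters on mapping quality, blacklists and high input signal, HER2 peaks from MACS2 and islands from SICER with input as the control. The submitters' processing notes name BWA 0.5.9, MACS 1.4.1 and SICER 1.1, so the aligner behind the files could not be settled. The deposited count of reads in each island is raw and unscaled for depth. The deposited score of each HER2 peak was used only within a list. The summit and depth of HER2 peaks are not given in the sources used here.

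Islands lie on a grid of 200 bp, and the deposited end, counted from 0, was taken as the last base. Sequence came from GRCh37, in which no interval passed a chromosome end, and genes from GENCODE release 44 mapped to it, with 20136 protein-coding gene names and all transcript starts. Overlap means 1 bp or more, and near means within 10 kb. Scripts ran in Python 3.11.15 with numpy 2.4.6, pandas 2.3.3 and scipy 1.17.1, and the overlap, distance and motif functions were tested on simulated data. No test across features was run, since the rule chose the islands by presence, and intervals (Wilson for shares, exact Poisson for densities, 95%) cover counting error only.

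The members, the gene lists and the motifs were chosen with earlier results of these data known. Named islands were the 10 with the most reads, the 10 widest, the 10 with the most reads among those with a protein-coding start and the 10 with the highest HER2 scores, and named genes those nearest to them, the 10 with the most BT474-only bases, and list genes with an island. The alternatives tried were the base replicate, leaving out each sample, the overlap, the distance to SKBR3 and the reads required, and settings for start sites, HER2 peaks and genes. Another 6, and the division by GC content, were added after the data had been seen. A gene of the luminal list and some sequences are not reported here.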

Additional observations from a re-analysis of the deposited data

How the results depend on the processing

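Over 9 values and 84 alternative values, 43 stayed within the spread between the replicates (counts within 1.5 times) and 41 moved, of which 1 changed direction. That spread comes from only 2 base lists and is small, so many moves are small too. Except for the numbers of islands and genes, the values with replicate 2 as the base list moved by construction. They set the spread themselves, so these moves say nothing about dependence on the processing. With replicate 2 as the base list, the median width was 2.0 kb, the median reads 74, reads per kb 40.7, the share within 10 kb of a start site 51.1%, the share with a BT474 EGF peak 2.74%, the ratio of peaks per Mb to shared islands 1.04 and GC 40.7%. With no SKBR3 island within 5 kb, the width was 2.0 kb, the share near a start site 46.5%, the share with a peak 2.83% and GC 40.4%. With 50 reads or more, these were 2.0 kb, 50.6% and 2.97%. With the island at least 50% covered in the other replicate, 50.6% were near a start site and 2.73% held a peak. Protein-coding starts alone gave 35.6%. The peak midpoint gave 2.48%. The top-scored peaks, those at or above the median score, gave 1.59% and a ratio of 1.09. The vehicle list gave a ratio of 0.995, which turned the direction against shared islands. Counting genes by a start within 10 kb gave 5796. Alternatives added after seeing the data gave 52.9% near a start site without bins lacking SKBR3 islands, and 53.2% and a ratio of 1.09 without the 5 chromosomes above 40%.

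Leaving out 1 sample in turn gave 34681 to 39693 islands, widths of 1.8 to 2.0 kb, 68 to 90 reads, 40 to 48.8 reads per kb, 50.8 to 52.6% near a start site, 2.63 to 2.81% with a peak, ratios of 1.04 to 1.098, 40.6 to 41.3% GC and 10363 to 11101 genes. No paired analysis was possible because no result comes from a test between groups. The lists give no depth for HER2, and the causes of these moves were not tested.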
